A study of Homo sapiens with 4 samples.

Results

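HMOX1, FTL, FTH1 and BLVRB, 4 genes of heme breakdown and iron storage, were followed through NRF2 ChIP-Seq summit lists from MDA-MB-231 mammospheres. A summit is the base of highest signal in a peak. A summit was assigned to a gene when it lay within 20 kb of the gene body in hg19, and 36 of the 9717 summits of the series met this rule. The genes were chosen as NRF2 target genes with earlier results of these data known. MDA-MB-231 is a human breast cancer cell line, and growth as spheres in suspension enriches for breast cancer stem cells. The series held 2 libraries from SC (scrambled control) mammospheres, whose genotype is labelled Parental, and 2 from ZMYND8 KO mammospheres, in which the histone reader ZMYND8 was knocked out. All 4 libraries came from the same cell line, medium and NRF2 antibody, with no treatment named in the labels. How the ZMYND8 KO line was made, and whether it is 1 clone, is not given in the sources used here. The labels do not say whether the libraries of a group came from separate cultures, so the spread between them may be technical.

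NRF2 is the transcription factor that turns on antioxidant and detoxification genes when cells meet oxidants, and it binds the antioxidant response element (ARE) together with a small MAF protein. HMOX1 encodes heme oxygenase 1, which opens the heme ring and releases iron, carbon monoxide and biliverdin. BLVRB encodes biliverdin reductase B, a cytosolic NADPH-dependent reductase of biliverdin and flavins. FTL and FTH1 encode the light and heavy chains of ferritin, the shell that stores iron. The heavy chain oxidizes ferrous iron and the light chain favours the mineral core. Free ferrous iron feeds the lipid peroxidation of ferroptosis, the form of cell death that the study addresses.

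The gene bodies used were chr22:35777060-35790207 for HMOX1, chr19:49468558-49470136 for FTL, chr11:61727190-61735132 for FTH1 and chr19:40953696-40971725 for BLVRB, all in hg19. HMOX1 and FTL lie on the plus strand, so their starts are the lower coordinates. FTH1 and BLVRB lie on the minus strand, and their starts are the higher coordinates. In the order of protein-coding genes in RefSeq, the upstream neighbours are TOM1 for HMOX1, BAX for FTL, INCENP for FTH1 and SPTBN4 for BLVRB. The downstream neighbours are MCM5 for HMOX1, GYS1 for FTL, BEST1 for FTH1 and SERTAD3 for BLVRB. The neighbours were not located in hg19, so a summit in a window may lie nearer to a neighbour than to the gene it was assigned to. The submitters' processing notes name both hg19 and hg38. Read with gene bodies of GRCh38 instead, the 4 windows held 0 summits in each of the 4 lists, and 93 of the 9717 summits of the series had positions past the end of the last GRCh38 gene on the chromosome.

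SC replicate 1 contributed 2030 summits and SC replicate 2 contributed 6816, against 394 for ZMYND8 KO replicate 1 and 477 for replicate 2. Each summit carries a score, taken here to be −log10 q of its peak. The score grows with sequencing depth, which is unknown, so ranks within a list were used beside it. ChIP summits carry no RNA measure, so neither the loss of ZMYND8 nor the expression of the 4 genes was checked in these lists. The paper itself examined ZMYND8 protein in SC and ZMYND8 KO mammospheres. It also reports lower NRF2 protein in the ZMYND8 KO mammospheres of this cell line. Whether that bears on the number or score of summits was not tested here.

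The promoters of FTL and BLVRB are printed as RefSeq gives them in GRCh38.p14, from 250 bases upstream to the base before the gene start. Of the 4 genes, only these 2 had a promoter in the reference used. They cover chr19:48965059-48965308 on the plus strand for FTL and chr19:40465746-40465995 on the minus strand for BLVRB, positions that cannot be set against the hg19 positions of the summits.
FTL: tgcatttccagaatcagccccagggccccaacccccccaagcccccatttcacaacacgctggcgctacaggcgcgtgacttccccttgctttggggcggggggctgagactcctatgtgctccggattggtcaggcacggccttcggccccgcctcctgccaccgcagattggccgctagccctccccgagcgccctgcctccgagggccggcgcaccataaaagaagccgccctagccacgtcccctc
BLVRB: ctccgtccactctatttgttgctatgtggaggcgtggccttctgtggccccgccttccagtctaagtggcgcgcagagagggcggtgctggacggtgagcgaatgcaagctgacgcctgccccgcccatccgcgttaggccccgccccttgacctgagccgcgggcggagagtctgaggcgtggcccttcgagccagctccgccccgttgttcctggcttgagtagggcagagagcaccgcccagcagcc
Neither stretch held the ARE core TGACNNNGC, the looser TGANNNNGC or the AP-1 site TGANTCA on either strand, so no letters are in capitals. TGACNNNGC is a special case of TGANNNNGC. Of 35116 RefSeq promoter stretches of the same length, 10.9% held the ARE core, 35.2% the looser form and 6.57% the AP-1 site. In hg19, 0 of the 36 summits fell from 250 bases before to 50 bases after the start of any of the 4 genes. The nearest lay 248 bp inside BLVRB, and 6 of the 36 lay within 1000 bp of a start. Sequence at the summits themselves was not analysed here.

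All 4 genes had at least 1 NRF2 summit in both SC lists, and HMOX1, FTL and FTH1 also had one in both ZMYND8 KO lists. BLVRB had a summit in neither ZMYND8 KO list. HMOX1 had 1 and 5 summits in the SC libraries, in the order of their replicate numbers, and 1 and 2 in the ZMYND8 KO libraries. FTL had 4 and 5 in SC, and 1 in each ZMYND8 KO list. FTH1 had 3 and 7 in SC, and 1 in each ZMYND8 KO list. BLVRB had 1 and 3 in SC.

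**Figure D1:**
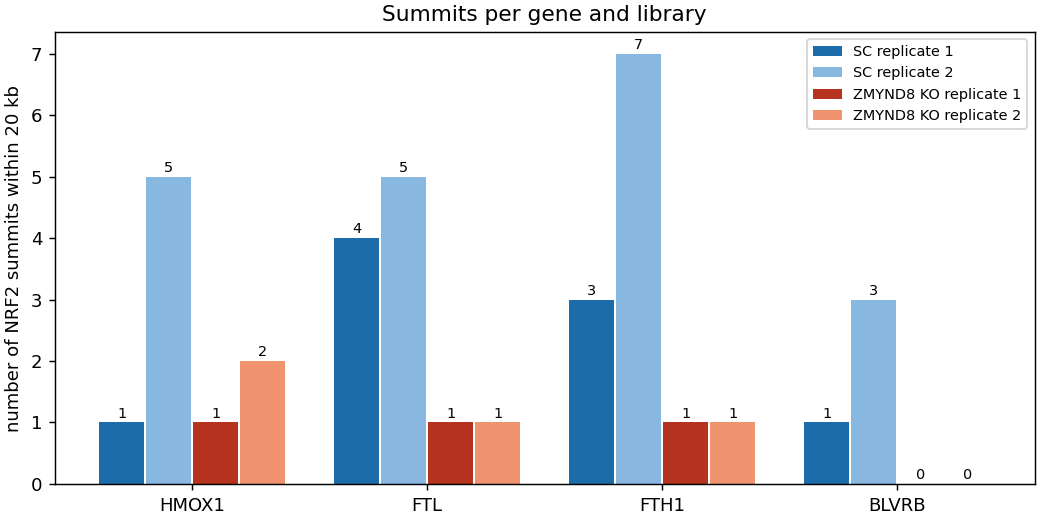
Bars give the number of NRF2 summits within 20 kb of each gene body (y axis) in each of the 4 libraries, with the number printed on each bar. SC replicate 2 has the most summits at every gene, and BLVRB has 0 in both ZMYND8 KO libraries.

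Together the windows held 9 summits of SC replicate 1 and 20 of replicate 2, against 3 of ZMYND8 KO replicate 1 and 4 of replicate 2. Both ZMYND8 KO libraries were below both SC libraries, with a mean of 3.50 ± 0.707 against 14.5 ± 7.78 (SD, n = 2 per group) and a difference of -11.0 summits. The exact permutation test over libraries gave a two-sided p of 0.33, the smallest that 2 against 2 allow. Without SC replicate 2, whose list is the longest, the difference was -5.50, and without SC replicate 1 it was -16.5. Relative to the length of its list, the number at these genes was not lower in ZMYND8 KO. It was 0.443% of the list in SC replicate 1 (exact 95% binomial interval 0.203% to 0.840%) and 0.293% in SC replicate 2 (0.179% to 0.453%). It was 0.761% in ZMYND8 KO replicate 1 (0.157% to 2.21%) and 0.839% in ZMYND8 KO replicate 2 (0.229% to 2.13%), and each of these intervals overlaps both SC intervals. The intervals cover counting error only and take each summit as independent. Summits lie close together at these genes, so the intervals are likely too narrow even for that. The windows add up to 200.7 kb and held 44.8 and 99.7 summits per Mb in the SC lists, where the whole lists held 0.683 and 2.29 per Mb of the span between outermost summits. In the ZMYND8 KO lists the windows held 14.9 and 19.9 per Mb against 0.133 and 0.161. The genes were chosen as NRF2 target genes with earlier results known, so these densities show nothing beyond that choice. Close summits count separately here, and the 36 summits formed 16 sites when chained at 500 bp.

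Most of the gap in number lay in weak summits, which also make up most of the SC lists as a whole. With a score of 20 or more there were 3 summits in each SC list and 2 in each ZMYND8 KO list. The top 300 of each list by score included 3 at these genes in both SC libraries, and 2 and 3 in the ZMYND8 KO libraries. The difference between the group means was then -0.500. With these counts every arrangement of the libraries gives a difference of the same size, so the permutation test could not decide anything here. Of the 29 SC summits 21 scored under 10, and of the 7 ZMYND8 KO summits 2 did. In the whole list of SC replicate 1, 700 of 2030 summits scored under 5 and 857 scored 5 to under 10. In that of SC replicate 2 these were 5033 and 1166 of 6816. The median scores of the whole ZMYND8 KO lists were 9.86 and 8.69. Nothing particular to the 4 genes is read from the weak summits.

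**Figure D2:**
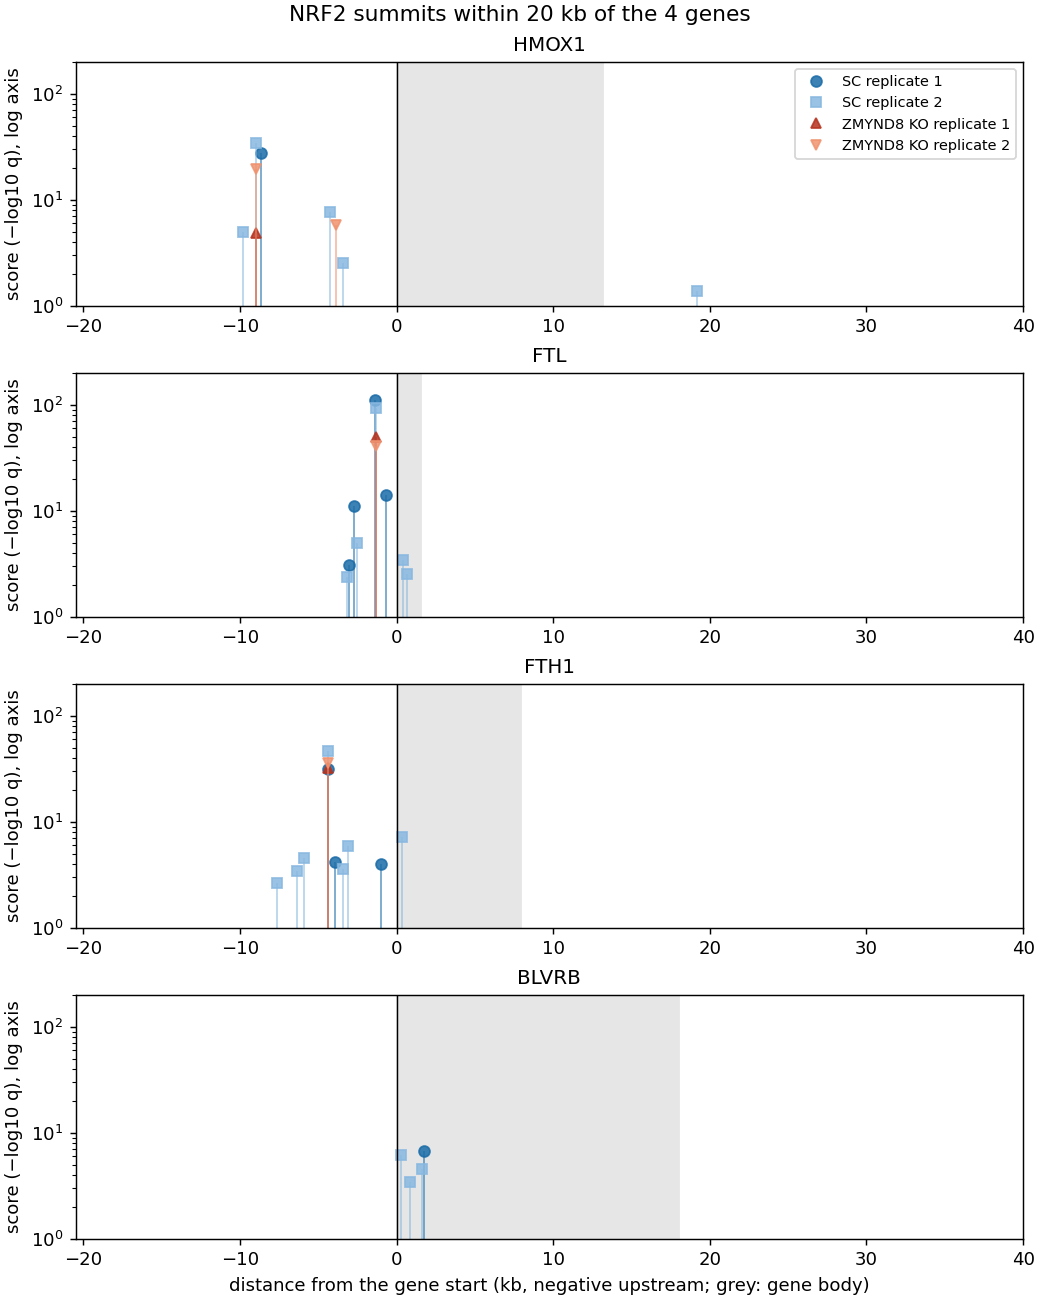
Each panel plots the score of every NRF2 summit (y axis, −log10 q, log axis) against its distance from the gene start in kb, negative upstream, with the gene body in grey and a symbol per library. At FTL and FTH1 all 4 libraries have their highest summit at a common position upstream of the gene, at HMOX1 these summits are 8.68 to 9.01 kb upstream, and at BLVRB the 4 SC summits lie inside the gene.

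FTL, the ferritin light chain gene, carried the strongest site. In SC replicate 1 its highest summit was at chr19:49467196 with a score of 110, ranked 17 of 2030. In SC replicate 2 it was at chr19:49467268 with a score of 93.4, ranked 20 of 6816. Both positions are upstream of the gene, by 1.36 and 1.29 kb.
The site was called in both ZMYND8 KO lists, at chr19:49467258 with a score of 49.5, ranked 29 of 394, and at chr19:49467207 with a score of 41.2, ranked 27 of 477. The 4 summits span 72 bp. Both ZMYND8 KO scores were below both SC scores at this site. A lower mean score in ZMYND8 KO was the usual case, found at 87.6% of the 226 sites called in all 4 lists within 200 bp. The share of these sites with both ZMYND8 KO scores below both SC scores was not computed. The ranks ran from 17 to 29, in lists of very unequal length, and stood for the top 0.837% and 0.293% of the SC lists and the top 7.36% and 5.66% of the ZMYND8 KO lists.
Weaker summits around it were found in SC alone. A pair of sites 2.54 to 3.17 kb upstream recurred between the SC lists, with scores of 3.08 and 11.1 in replicate 1 and 2.39 and 4.92 in replicate 2. A summit 0.677 kb upstream, with a score of 14.1 and rank 304, was listed in SC replicate 1 only. SC replicate 2 alone had 2 summits inside the gene, 0.379 and 0.681 kb from the start, with scores of 3.40 and 2.53. The nearest ZMYND8 KO summit to any of these was the strong site itself.

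FTH1, the ferritin heavy chain gene, had its strongest site upstream of the gene by 4.36 to 4.38 kb, with the 4 summits within 22 bp. The score was 31.6 at chr11:61739494 in SC replicate 1, with rank 97. It was 46.7 at chr11:61739502 in SC replicate 2, with rank 56. In ZMYND8 KO replicate 1 the score was 32.6 at chr11:61739512, with rank 51, and in ZMYND8 KO replicate 2 it was 36.0 at chr11:61739490, with rank 32. The scores of the 2 groups overlapped, since both ZMYND8 KO values lie between the SC values. As a share of its list, the rank stood for the top 4.78% and 0.822% in SC and the top 12.9% and 6.71% in ZMYND8 KO.
SC replicate 1 held 2 further FTH1 summits, 1.03 and 3.91 kb upstream, with scores of 4.04 and 4.15. SC replicate 2 held 6 more, with scores from 2.63 to 7.22, of which 1 lay 0.344 kb inside the gene and the farthest 7.64 kb upstream. None of the 8 had a summit of the other SC list within 200 bp. The body used for FTH1 is 7943 bp long, longer than the RefSeq gene, and no list had a summit downstream of it.

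HMOX1, the heme oxygenase gene, had its strongest site farther away, about 9 kb upstream. SC replicate 1 placed it at chr22:35768381 with a score of 28.0, ranked 118, and SC replicate 2 at chr22:35768073 with a score of 34.2, ranked 94. These 2 summits are 308 bp apart and so were not counted as 1 site at 200 bp. ZMYND8 KO replicate 1 had its summit at chr22:35768080, 7 bp from that of SC replicate 2, with a score of 4.85 and rank 328 of 394. ZMYND8 KO replicate 2 had it at chr22:35768052, 21 bp from that of SC replicate 2, with a score of 19.5 and rank 86 of 477.
Both ZMYND8 KO scores at HMOX1 were below both SC scores. Of the 268 sites called in all 4 lists within 500 bp, 84.0% had a lower mean score in ZMYND8 KO, so a lower mean is not particular to HMOX1. How many of them had both ZMYND8 KO scores below both SC scores was not computed. The HMOX1 site was in the top 5.81% and 1.38% of the SC lists. The ZMYND8 KO libraries differed from each other here, with the summit in the top 83.2% of the list of replicate 1 and the top 18.0% of that of replicate 2.
A second region, 3.41 to 4.28 kb upstream of HMOX1, held summits of SC replicate 2 with scores of 7.72 and 2.53, and of ZMYND8 KO replicate 2 with a score of 5.79 at chr22:35773168, rank 357. The last of these lies between the other two, 389 bp from the nearer one, and was the only one of the 7 ZMYND8 KO summits at these genes without an SC summit within 200 bp. SC replicate 2 also had a summit 9.79 kb upstream with a score of 4.92 and one 19.2 kb from the start, beyond the end of the gene, with a score of 1.38. SC replicate 1 and ZMYND8 KO replicate 1 had no summit in any of these places.

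BLVRB, the biliverdin reductase gene, had the lowest of the 4 genes' highest scores in each SC list, and its summits all lay inside the gene within 1.78 kb of its start. SC replicate 1 had 1 at chr19:40969950 with a score of 6.73, ranked 898. SC replicate 2 had one at chr19:40970091 with a score of 4.58, ranked 2394, which is 141 bp from the first. It had 2 others at 0.845 and 0.248 kb from the start, with scores of 3.40 and 6.16. The nearest ZMYND8 KO summit to any of these 4 was 225402 bp away. At this score a missing ZMYND8 KO summit was the usual case, since 14.9% of SC replicate 1 summits scoring 5 to under 10 had one, and 1.01% and 7.20% of SC replicate 2 summits scoring under 5 and 5 to under 10.

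**Figure D3:**
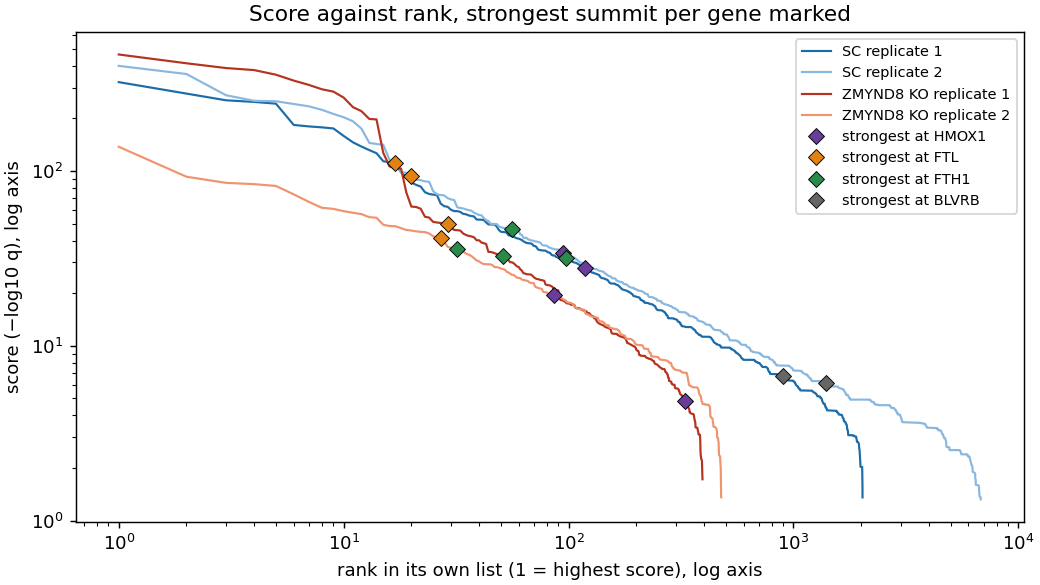
Lines give the score (y axis, −log10 q, log axis) against the rank in each list (x axis, log axis), and diamonds mark the highest summit at each gene in each list. FTL lies between ranks 17 and 29 and FTH1 between 32 and 97 in all 4 lists, HMOX1 lies between 86 and 118 except in ZMYND8 KO replicate 1 (rank 328), and BLVRB is at ranks 898 and 1396 in SC alone.

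The 4 genes thus differed in where NRF2 summits lay. Of the 36 summits 28 were upstream of a gene, by up to 9.79 kb, 7 were in a gene body and 1 was downstream. All 7 ZMYND8 KO summits were upstream, as were 21 of the 29 SC summits. A site shared between lists enters these numbers once per list, and the share upstream over all genes was not computed. Chained at 200 bp over all lists, the 36 summits formed 25 sites, of which 2 (at FTL and FTH1) were in all 4 lists, 1 (at HMOX1) in 3, 3 in 2 and 19 in 1. Chained at 500 bp they formed 16 sites, and 3 of these, the third at HMOX1, were in all 4 lists. The same shares over all sites of the series were not computed, and the lists differ widely in length. Nothing particular to the 4 genes is read from these site numbers.

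Within the SC group, 5 of the 9 summits of replicate 1 at these genes recurred in replicate 2 within 200 bp, where 58.7% of the whole list did. Of the 20 in replicate 2, 5 recurred in replicate 1, where 17.6% of the whole list did. In ZMYND8 KO, 3 of the 3 summits of replicate 1 and 3 of the 4 of replicate 2 had a summit in the other list within 200 bp, where 68.8% and 56.8% of the whole lists did.

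Between the groups, ZMYND8 KO summits within 200 bp were found for 2 of the 9 in SC replicate 1, at FTL and FTH1, beside 22.2% of its whole list. In SC replicate 2 these were 3 of the 20, at FTL, FTH1 and HMOX1, beside 7.00% of its whole list. Each was matched in both ZMYND8 KO lists. At 500 bp the numbers were 4 and 5, beside 27.1% and 8.92% of whole lists, and HMOX1 was then among them in both SC lists. In the other direction, 3 of the 3 and 3 of the 4 summits of ZMYND8 KO replicates 1 and 2 had an SC summit within 200 bp, beside 91.1% and 88.1% of the whole lists. With so few summits, nothing particular to the 4 genes is read from these shares.
By score, the shared summits were the strong ones. With a score of 20 or more, 2 of 3 in SC replicate 1 and 3 of 3 in SC replicate 2 had a ZMYND8 KO summit within 200 bp, where 88.9% and 87.2% of all summits of that score did. With a score of 10 to under 20, 0 of 2 in SC replicate 1 did, both at FTL, where 47.9% of all such summits did. SC replicate 2 had none of these 4 genes' summits in that class, in which 37.9% of all its summits were shared. Under a score of 5, 0 of 3 and 0 of 13 were shared, where 2.71% and 1.01% of all summits were.

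**Figure D4:**
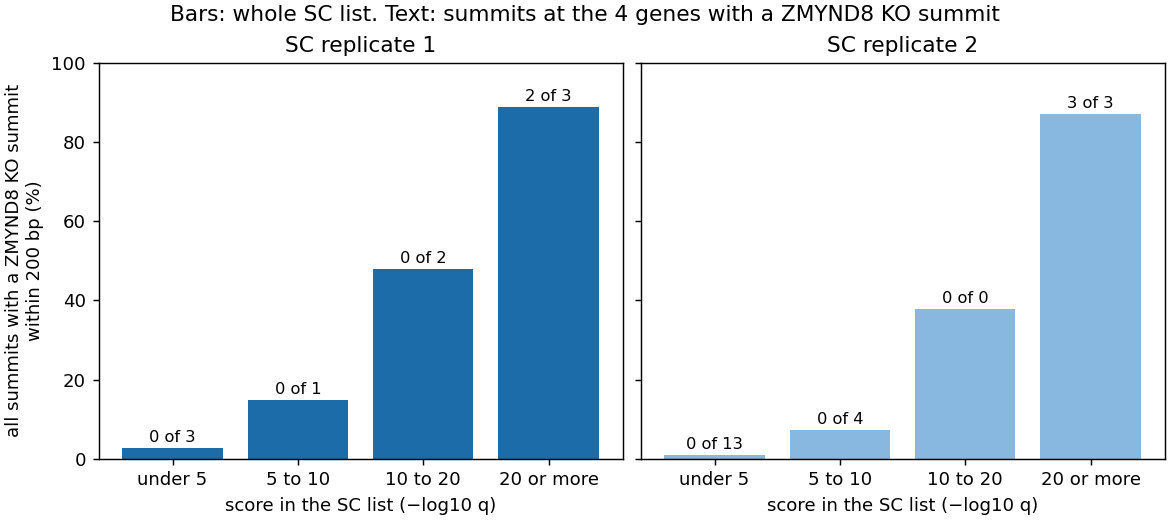
Bars give the percentage of all summits of an SC list (1 panel per replicate) that had a ZMYND8 KO summit within 200 bp, by score class, and the text on each bar gives the same count for summits at the 4 genes. In both lists the bars rise with the score to 88.9% and 87.2%, and the only shared summits at the 4 genes scored 20 or more.

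The score at the strong sites was set beside all sites called in the 4 lists, a description chosen after the values were seen. Of 226 such sites within 200 bp of a summit of SC replicate 2, the median ratio of the mean ZMYND8 KO score to the mean SC score was 0.619, with quartiles of 0.474 and 0.816, and it was below 1 at 87.6%. FTL had a ratio of 0.445, from 45.3 against 102, and 21.7% of the sites had a lower one. FTH1 had a ratio of 0.876, from 34.3 against 39.1, and 79.6% had a lower one.
HMOX1 entered when sites were taken within 500 bp, which gave 268 sites with a median of 0.632. Its ratio was 0.392, from 12.2 against 31.1, and 14.6% of the sites had a lower one. It rests on unlike ZMYND8 KO values of 4.85 and 19.5. FTL thus lay below the lower quartile of ratios at both distances and FTH1 above the upper one, while the 2 groups of FTH1 scores overlapped. A lower score and fewer reads in a library cannot be told apart in these lists.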

How the data were processed

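NRF2 ChIP-Seq was analysed in 2 SC and 2 ZMYND8 KO libraries, assigned by their titles. The authors deposited 1 MACS2 summit list per library, with a score per summit, taken as −log10 q because no value is below 1.32 and a q-value of 0.05 corresponds to 1.30. The submitters' processing notes name FastQC 0.11.2, Bowtie2 2.2.3, Picard 1.127 and MACS2 2.0.10. The control library and any read filter are not given in the sources used here, and depth is unknown, so the precision it gives could not be computed.

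Positions (counted from 1) were read as hg19. Summits within 20 kb of each gene body were taken, ranked by score in their own list, and called shared within 200 bp. The members and lists were chosen with earlier results of these data known. Strands of HMOX1 and FTH1 are from general knowledge. Promoters matched 2 of the 4 genes. The other genes of heme and iron handling fixed in the design were not located, since no hg19 annotation was used here. Functions were tested on simulated data. The software was matplotlib 3.10.9, pandas 2.3.3, scipy 1.17.1 and numpy 2.4.6 under Python 3.11.15. Alternatives were other windows, distances, score and rank limits, libraries left out, the replicate block and GRCh38.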

Additional observations from a re-analysis of the deposited data

How the results depend on the processing

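The lower number of summits in ZMYND8 KO kept its direction under windows of 5, 10, 50 and 100 kb and with summits within 500 bp counted once. It did so too with a minimum score of 10 and in the top 300 of each list by score. The differences lay between -0.500 and -13.0. The SC lists are far longer (2030 and 6816 summits against 394 and 477), so a kept direction says little about these genes. At a minimum score of 10 the difference was -1.50 (exact permutation test, two-sided p = 0.67), and in the top 300 it was -0.500. As a share of its list, the number was not lower in ZMYND8 KO. Leaving out 1 library in turn, the difference ran from -5.50 (without SC replicate 2) to -16.5 (without SC replicate 1). With gene bodies of GRCh38 it was 0, as no summits were found. With the replicate number as a block the mean difference was -11.0, with ZMYND8 KO lower in each of the 2 pairs. An exact two-sided sign permutation gave p = 0.5, which is the lowest possible for 2 pairs, and the labels do not say what a shared number stands for. The number of shared SC summits moved with the distance. Within 500 bp it was 4 in SC replicate 1 and 5 in SC replicate 2, and within 1000 bp it was 5 and 7, because a wider distance matches more summits. In SC replicate 2 it was 2 with a window of 5 kb, which leaves out the HMOX1 site. Leaving out 1 library, it stayed at 2 and 3. The genes with a summit in each list went from 4 to 3 in SC and from 3 to 2 in ZMYND8 KO at 5 kb, at a minimum score of 10 and in the top 300. It was 4 and 3 with windows of 10, 50 and 100 kb, with close summits counted once and with 1 library left out, and 0 with GRCh38, where the windows were empty. The promoter result was 0 of 2 with both forms of the ARE core. Requiring both ZMYND8 KO lists and leaving out the downstream side, added after the data were seen, moved nothing. Unknown depth limits every comparison of scores and of absent summits.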

Other observations

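Between 20 and 100 kb from the 4 gene bodies, SC replicate 2 alone held summits. One lay 81.1 kb upstream of HMOX1 with a score of 6.28, and 3 lay 31.5, 44.6 and 45.5 kb from the start of FTL on its downstream side with scores of 5.23, 2.33 and 2.36. The other 3 lists had none in these outer stretches. At FTH1 and BLVRB no list held a summit between 20 and 100 kb, so that the FTH1 summits of all lists lay within 7.64 kb of the gene start.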
